A study of Mus musculus with 2 samples.

Results

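The voltage-gated calcium channel subunits were followed as a set of 10 listed genes in single cells sorted from the retina. The genes are *Cacna1a*, *Cacna1b*, *Cacna1c*, *Cacna1d*, *Cacna1f*, *Cacna1g* and *Cacna1h*, which encode pores, and *Cacnb2*, *Cacna2d1* and *Cacna2d4*, which encode accessory subunits. All 10 had a row among the 17774 genes of the deposited counts and all 10 stayed among the 15947 genes detected in 3 or more cells. The rule that chose them lists gene names and uses no measured value, although earlier results of these data were known. The cells came from mice that carry the Pde6ccpfl1 mutation and an eGFP transgene driven by the *Chrnb4* promoter, with the strain labelled C57BL/6, so the uninjected controls carry the mutation and the transgene as well. GFP-positive cells were taken at postnatal day 24 from untreated retinae and from retinae that had received GSK-J4, an inhibitor of H3K27 demethylases, as a single 10 µM intravitreal injection at day 14, called treated below. Each of the 2 conditions was 1 library of cells sorted singly into the wells of its own plate, which means that the plate and the treatment cannot be told apart, and differences have no replicate check. The control retinae were not injected, so the drug cannot be told apart from the injection and its vehicle either. No test was run on cells, and every interval below is a 95% interval. Those of counts, rates and ratios cover counting error only. Those of shares of cells treat the cells of 1 library as independent draws. Neither kind covers differences between animals or plates.

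A voltage-gated calcium channel is built around an alpha-1 subunit, which forms the pore and senses voltage. Beta subunits bind the pore from the inside and alpha2delta subunits bind it from the outside, and both help to bring it to the membrane. Photoreceptors release glutamate continuously in darkness, and the calcium that drives this release enters through L-type channels at the ribbon synapse, chiefly the pore encoded by *Cacna1f* with the partners encoded by *Cacnb2* and *Cacna2d4*. *Cacna1c* and *Cacna1d* encode the other L-type pores of neurons, *Cacna1a* and *Cacna1b* the P/Q-type and N-type pores of conventional synapses, and *Cacna1g* and *Cacna1h* the T-type pores that open at more negative voltages.

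The libraries differed in depth, in mitochondrial share and in cone transcripts, and this bears on every value below. After filtering there were 82 uninjected cells with 1113424 counts and a median of 8118 counts per cell, and 64 treated cells with 208578 counts and a median of 2335.5. The median number of genes per cell was 1793 in uninjected and 948.5 in treated cells. The median share of mitochondrial counts was 0.949% and 0.0145%. At least 1 count of the 11 cone markers was present in 82 of 82 uninjected cells but in 14 of 64 treated cells. Of the 445 marker counts of the treated library, single cells held 303, 88 and 37, and each other treated cell held at most 5. A marker count therefore does not by itself mark a treated cell as a cone. The whole marker list took 2.59% of the uninjected counts, with 0.358% to 9.81% in single cells, and 0.213% of the treated counts, with 0% to 6.74% in single cells, and 5 of its 11 genes were at 0 in the treated library. Rod markers took 0.269% and 0.0211%, and the lists for Müller glia, bipolar, amacrine, ganglion, microglial and pigment epithelial cells took at most 0.105% in either library. Olfactory and vomeronasal receptor genes, which are not expected in retina, took 0.624% of the uninjected and 1.43% of the treated counts. The part these differences play in the channel values was not tested.

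The promoters of *Cacna1b* and *Cacna1f* are shown because GSK-J4 acts on H3K27 methylation, a mark that is often laid down on promoters rich in CpG, and these promoters differ in CpG. The 250 bases before each start are given 5′ to 3′ on the strand of the gene (RefSeq, GRCm38.p6), at chr2:24763153-24763402 on the minus strand and chrX:7606853-7607102 on the plus strand, with each CpG in capitals.
*Cacna1b*: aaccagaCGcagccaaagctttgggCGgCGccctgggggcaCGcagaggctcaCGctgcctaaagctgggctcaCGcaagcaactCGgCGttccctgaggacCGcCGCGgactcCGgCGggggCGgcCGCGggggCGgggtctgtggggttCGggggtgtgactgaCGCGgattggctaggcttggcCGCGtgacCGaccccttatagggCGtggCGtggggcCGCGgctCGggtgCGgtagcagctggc
*Cacna1f*: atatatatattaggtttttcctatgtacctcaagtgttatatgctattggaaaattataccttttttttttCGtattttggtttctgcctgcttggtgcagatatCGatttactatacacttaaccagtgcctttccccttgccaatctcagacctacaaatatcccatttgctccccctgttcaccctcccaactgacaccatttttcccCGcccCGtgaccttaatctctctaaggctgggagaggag

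The *Cacna1b* stretch held 29 CpG, more than 93.2% of the 32851 promoters in the same table, while that of *Cacna1f* held 4, against a median of 6 over all promoters. Entries were found for 6 of the 10 genes. *Cacna2d1* had 36 CpG, *Cacnb2* 30 and 3 at its pair of starts, *Cacna1d* 50 and 2, and *Cacna1c* 48, 5 and 2. The letters TAATCC, the core of the site bound by the photoreceptor factor CRX, were searched on both strands (TAATCC and GGATTA) and were found in none of these stretches. Of all promoters 6.25% held them, so their absence from so few stretches says little. No histone mark was measured in these cells, so the sequences describe the genes and not a response.

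Nearly all channel counts came from *Cacna1a* and *Cacna1h*. Together these pores held 2870 of the 3144 counts of the 10 genes in uninjected cells (91.3%) and 1033 of the 1105 in treated cells (93.5%). *Cacna1a* had 1910 counts (1825 to 1998) in uninjected and 675 (625 to 728) in treated cells, and it ranked 43rd and 22nd by counts among all 15947 genes. *Cacna1h* had 960 (900.2 to 1023) and 358 (322 to 397) counts and ranked 112th and 49th. The ratio of *Cacna1a* to *Cacna1h* counts was 1.99 (1.84 to 2.15) in uninjected and 1.89 (1.66 to 2.15) in treated cells. Single cells weighed on this ratio. Without the cell with the most counts of each gene it was 1.95 (1.79 to 2.13) in uninjected and 2.45 (2.09 to 2.88) in treated cells, so that the order of the libraries turned. Between plate sides it was 1.72 (1.52 to 1.94) and 1.6 (1.35 to 1.89) in columns 1 to 6 and 2.21 (1.99 to 2.45) and 2.41 (1.95 to 2.98) in columns 7 to 12. Without the top cells of each side the uninjected and treated values were 2.28 (1.97 to 2.64) and 2.52 (1.97 to 3.25) in columns 1 to 6 and 2.21 (1.956 to 2.49) and 2.43 (1.94 to 3.05) in columns 7 to 12.

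Levels of different genes were compared as counts per 10000 counts of the library and per kb of annotated exon, although counts of tagged transcript ends need not scale with length. In uninjected cells the order was *Cacna1a* at 1.5 (1.44 to 1.57), *Cacna1h* at 0.883 (0.828 to 0.941), *Cacna2d4* at 0.0644 (0.0500 to 0.0817), *Cacnb2* at 0.0523 (0.0413 to 0.0653), *Cacna1f* at 0.0385 (0.0274 to 0.0527) and *Cacna1d* at 0.0334 (0.0246 to 0.0445). *Cacna2d1* followed at 0.0137 (0.00827 to 0.0215), then *Cacna1c* at 0.00678, *Cacna1b* at 0.00542 and *Cacna1g* at 0.00177. *Cacna1a* and *Cacna1h* stood apart from each other and from the rest. From *Cacna2d4* to *Cacna1d* the interval of each gene overlapped that of the next, *Cacna1d* and *Cacna2d1* did not overlap, and from *Cacna2d1* to *Cacna1g* neighbours overlapped again. In treated cells *Cacna1a* at 2.83 (2.62 to 3.06) and *Cacna1h* at 1.76 (1.58 to 1.95) again led, *Cacna1b* came next at 0.101 (0.0627 to 0.155) and *Cacna1f* at 0.0633 (0.0327 to 0.111), and *Cacna2d4* was last at 0.00506 (0.000128 to 0.0282). From *Cacna1b* downwards each interval overlapped that of its neighbour.

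As a measure of background, 396 olfactory and vomeronasal receptor genes had a median of 0.00828 and a 95th percentile of 0.0999 on the same scale in uninjected cells, and of 0.0291 and 0.25 in treated cells. In each library 2 of the 10 channel genes, *Cacna1a* and *Cacna1h*, lay above this 95th percentile, and 3 lay below the median. Those below the median were *Cacna1b*, *Cacna1c* and *Cacna1g* in uninjected cells and *Cacna1c*, *Cacnb2* and *Cacna2d4* in treated cells. By counts alone, 1 of the 396 receptor genes reached *Cacna1a* and 1 reached *Cacna1h* in uninjected cells, where the highest receptor gene had 1940 counts. In treated cells, where the highest had 369 counts, 0 reached *Cacna1a* and 1 reached *Cacna1h*. At least the 39 counts of *Cacna1f* were held by 20 receptor genes in uninjected cells, and at least its 12 counts by 34 in treated cells.

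*Cacna1a* was found in 81 of 82 uninjected cells (98.8%, 93.4 to 100%) and 63 of 64 treated cells (98.4%, 91.6 to 100%). Treated cells held fewer *Cacna1a* counts per cell but more per 10000 counts. The median was 13 counts per cell in uninjected and 7 in treated cells, whereas per 10000 counts of the cell the median was 14.3 (quartiles 9.43 and 25, highest 389) and 27.4 (quartiles 22.4 and 37.9, highest 1467). Summed over each library the rate was 17.2 (16.4 to 17.9) and 32.4 (30.0 to 34.9) per 10000 counts, or 1.89-fold higher (1.73 to 2.06) in treated cells. Single cells of the libraries overlapped, with ranges of 0 to 389 in uninjected and 0 to 1467 in treated cells.

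*Cacna1h* was found in 66 of 82 uninjected cells (80.5%, 70.3 to 88.4%) and 55 of 64 treated cells (85.9%, 75 to 93.4%). Its median was 5 counts per cell in uninjected and 3 in treated cells, or 6.08 and 10.6 per 10000 counts, with highest values of 186 and 374. The rate over the libraries was 8.62 (8.09 to 9.19) and 17.2 (15.4 to 19.0) per 10000 counts, 1.99-fold higher (1.76 to 2.25) in treated cells. As with *Cacna1a*, single cells of the libraries overlapped. Exons of *Cacna1a* overlap *Gm16183*, and those of *Cacna1h* overlap *Tpsg1*, on the other strand in GENCODE M21, and no source says that counting used strand. *Tpsg1* had 3 and 4 counts.

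**Figure D1:**
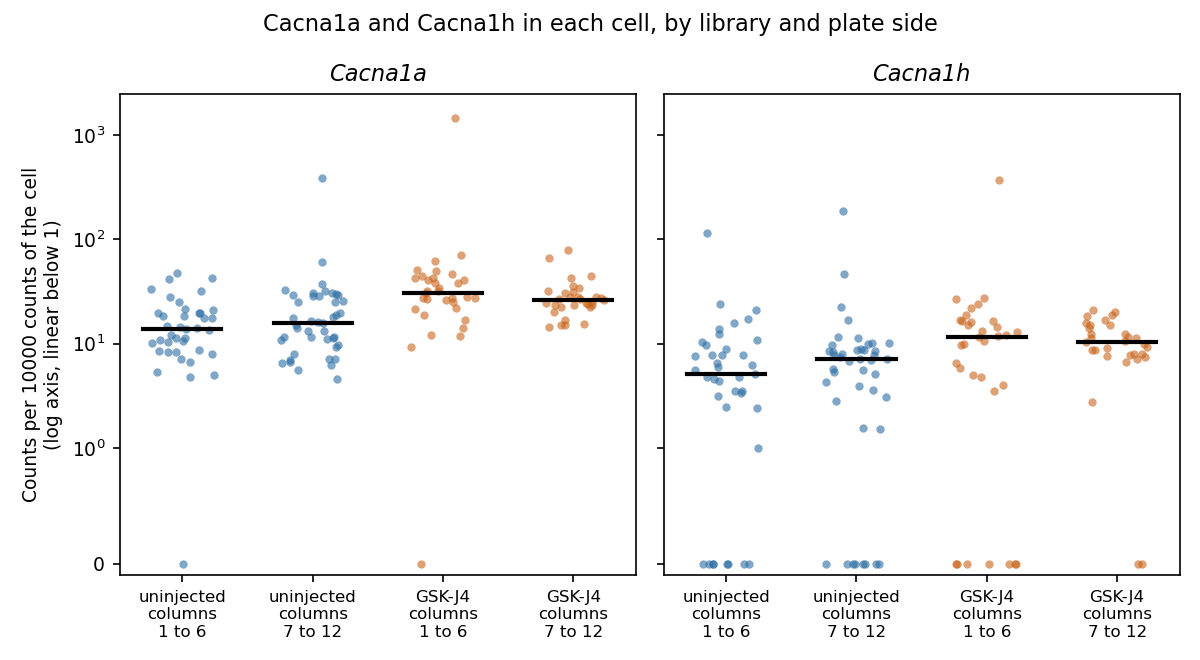
*Cacna1a* (left) and *Cacna1h* (right) in each sorted cell as counts per 10000 counts of that cell (log axis, linear below 1), split by library and by plate columns. Points are cells and bars are medians. In every panel the treated median lies above the uninjected median of the same columns, the clouds overlap, and 1 treated cell lies far above the others for each gene.

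Single cells weighed on these rates. The treated cell with the highest *Cacna1a* value had 125 *Cacna1a* counts among 852 in all, 18.5% of the *Cacna1a* counts of its library, and no cone marker count. The highest uninjected cell had 306 of 7874 counts, 16.0% of its library's *Cacna1a* counts. For *Cacna1h*, 1 treated cell with 137 of 3668 counts held 38.3% of the library's *Cacna1h* counts, and the highest uninjected cell held 14.4%. Without these cells the rates were 14.5 and 26.5 per 10000 counts for *Cacna1a* and 7.43 and 10.8 for *Cacna1h*, so that both stayed higher in treated cells.

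The plate columns moved with the size of the difference. The median *Cacna1a* level in treated cells was 2.21 times the uninjected one in columns 1 to 6 (13.7 and 30.4 per 10000) and 1.68 times in columns 7 to 12 (15.6 and 26.2). For *Cacna1h* these ratios of medians were 2.27 (5.16 and 11.7) and 1.47 (7.08 and 10.4). The rates summed over cells differed more between the sides, with 13.4 (12.4 to 14.4) and 41.5 (37.4 to 46.0) for *Cacna1a* in columns 1 to 6 and 20.8 (19.6 to 22.0) and 25.6 (22.8 to 28.7) in columns 7 to 12. Of *Cacna1h* the rates in columns 7 to 12 were 9.42 (8.64 to 10.3) and 10.6 (8.88 to 12.7), whose intervals overlap.

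Counts of both genes followed the depth of the cell. As a description over cells that share a library, the Spearman correlation of *Cacna1a* counts with total counts was 0.83 over 82 uninjected and 0.85 over 64 treated cells, and that of *Cacna1h* counts 0.81 and 0.85. For the *Cacna1a* level per 10000 counts these correlations were -0.22 and -0.29, and for *Cacna1h* 0.12 and 0.068. In the treated library the 14 cells with a cone marker count, which were deeper (median 3839.5 counts) than the 50 without (1826.5), had 25 *Cacna1a* and 11.1 *Cacna1h* counts per 10000, against 36.0 and 20.2. The 14 treated cells under 867 counts had a mean of 139 *Cacna1a* counts per 10000 against 28.5 in the other 50 cells, while their medians were 41.6 and 27.2.

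The genes whose level per cell was most like that of *Cacna1a* over the 82 uninjected cells, by Spearman correlation of the log level among 2643 genes, were *Prelp* (0.73), *Add2* (0.73) and *Cttnbp2nl* (0.73). All 3 were found in 82 of 82 uninjected cells and in 63 or 64 of the 64 treated cells, with 9253, 26086 and 20510 counts in the former. Those most like *Cacna1h* were *7420701I03Rik* (0.61), *Notch4* (0.54) and *Ric8b* (0.54), and the correlation of *Cacna1a* with *Cacna1h* was 0.45. All of these share the depth and composition of the same cells.

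**Figure D2:**
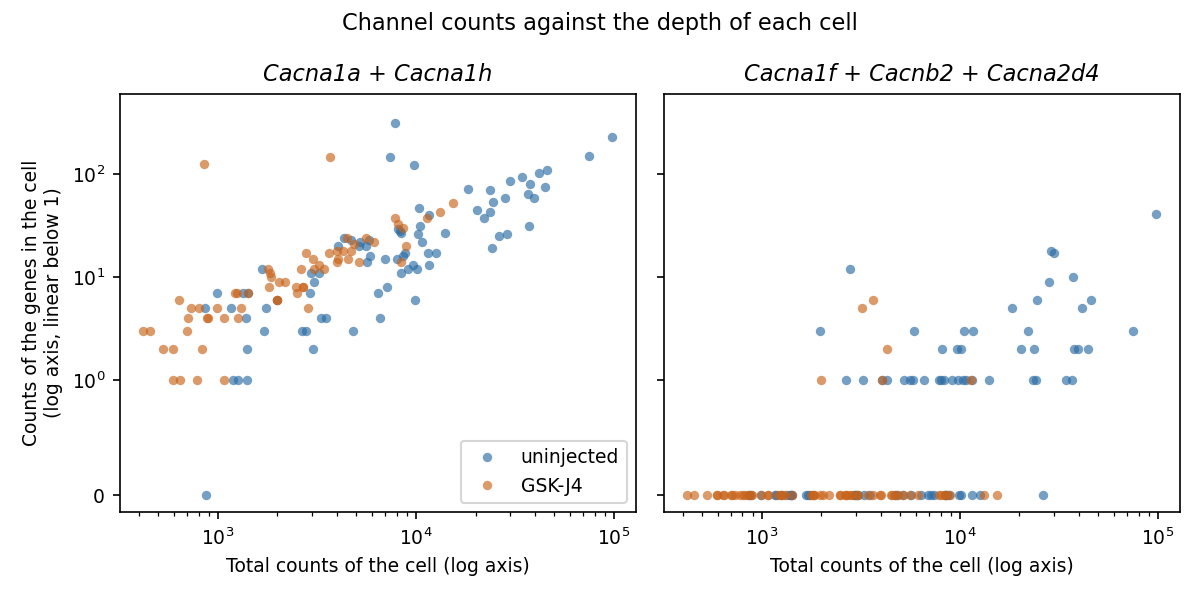
Counts in each cell of *Cacna1a* plus *Cacna1h* (left) and of *Cacna1f*, *Cacnb2* and *Cacna2d4* together (right) against total counts of the cell, both on log axes (the vertical axis is linear below 1). Left, counts rise with depth in both libraries. Right, 45 of 82 uninjected and 6 of 64 treated cells hold a count, mostly among the deeper cells.

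The subunits of the cone synapse channel were sparse in both libraries. *Cacna1f*, the photoreceptor pore, had 39 counts (27.7 to 53.3) in uninjected cells and 12 (6.20 to 21.0) in treated cells. It was found in 25 of 82 uninjected cells (30.5%, 20.8 to 41.6%), of which 23 had a single count and 1 had 14, and in 3 of 64 treated cells (4.69%, 0.977 to 13.1%), of which 1 had 6. The rates were 0.350 (0.249 to 0.479) and 0.575 (0.297 to 1.005) per 10000 counts, and their ratio of 1.64 (0.783 to 3.20) did not differ from 1 beyond counting error. A count of *Cacna1f* was thus seen in fewer treated cells but not at a lower rate, since 11 of the 12 counts came from 2 cells. In uninjected cells *Cacna1f* was found in 8 of 39 cells of columns 1 to 6, with 8 counts, and in 17 of 43 cells of columns 7 to 12, with 31 counts.

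*Cacna2d4*, the alpha2delta subunit of the photoreceptor channel, had 68 counts (52.8 to 86.2) in 24 of 82 uninjected cells (29.3%, 19.7 to 40.4%) and 1 count (0.0253 to 5.57) in 1 of 64 treated cells (1.56%, 0.0396 to 8.40%). Its rate fell from 0.611 (0.474 to 0.774) to 0.0479 (0.00121 to 0.267) per 10000 counts, a ratio of 0.0785 (0.00196 to 0.452). The uninjected cell with the most counts held 17 of the 68. The highest level was in another uninjected cell, with 12 counts among 2801, or 42.8 per 10000. The mean level over the 82 cells, which enters the log-fold below, was 0.830, and it was not computed without that cell alone. Both sides of the uninjected plate held it, with 33 counts in 13 of 39 cells and 35 counts in 11 of 43 cells.

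*Cacnb2*, the beta subunit, showed the same order, with 77 counts (60.8 to 96.2) in 19 of 82 uninjected cells (23.2%, 14.6 to 33.8%) and 3 counts (0.619 to 8.77) in 3 of 64 treated cells (4.69%, 0.977 to 13.1%). The rates were 0.692 (0.546 to 0.864) and 0.144 (0.0297 to 0.420) per 10000 counts, a ratio of 0.208 (0.0420 to 0.631). A single uninjected cell, the deepest with 98250 counts, held 35 of the 77, or 45.5%. Without that cell the uninjected rate was 0.414. Exons of *Cacnb2* overlap *Gm10848*, which had 5 and 0 counts, and the rowless *Gm10849* and *Gm13269* on the other strand.

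Summed, *Cacna1f*, *Cacnb2* and *Cacna2d4* had 184 counts (158 to 213) in uninjected and 16 (9.15 to 26.0) in treated cells, or 1.65 (1.42 to 1.91) and 0.767 (0.438 to 1.25) per 10000 counts, a ratio of 0.464 (0.260 to 0.774). At least 1 of the 3 was found in 45 of 82 uninjected cells (54.9%, 43.5 to 65.9%) and 6 of 64 treated cells (9.38%, 3.52 to 19.3%). All 3 were found together in 4 uninjected cells and in 0 of 64 treated cells, where 3 cells would be a share of 4.69%. This limits cells with a count of all 3 at this depth and not cells that express them. *Cacna1f* and *Cacna2d4* shared 10 uninjected cells, 40.0% of the cells with the first and 41.7% of those with the second. *Cacna2d4* and *Cacnb2* also shared 10 (41.7% and 52.6%), and *Cacna1f* and *Cacnb2* shared 7 (28% and 36.8%).

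Uninjected cells with a count of these genes were deeper than those without. The median total was 18311 counts in the 25 cells with *Cacna1f* and 5847 in the 57 without, 24409 and 5624 for *Cacna2d4*, and 10733 and 6613 for *Cacnb2*. The median share of cone markers was 2.02% with and 1.88% without *Cacna1f*, 2.62% and 1.82% for *Cacna2d4*, and 2.02% and 1.88% for *Cacnb2*. In the treated library, 1 of the 3 cells with *Cacna1f*, 0 of the 3 with *Cacnb2* and the 1 cell with *Cacna2d4* had a cone marker count, and 14 of all 64 cells had one.

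The other L-type pores were also sparse. *Cacna1d* had 47 counts (34.5 to 62.5) in 14 of 82 uninjected cells and 8 (3.45 to 15.8) in 4 of 64 treated cells, a ratio of rates of 0.909 (0.371 to 1.94) that did not differ from 1 beyond counting error. The highest uninjected cell held 16 of its 47 counts. Its exons overlap *Chdh*, with 6 and 3 counts, on the other strand. *Cacna1c* had 16 counts (9.15 to 26.0) in 12 of 82 and 11 (5.49 to 19.7) in 8 of 64 cells, at rates of 0.144 (0.0821 to 0.233) and 0.527 (0.263 to 0.944) per 10000 counts, which was 3.67-fold higher (1.54 to 8.42) in treated cells. The share of cells with a count was alike for *Cacna1c*, at 14.6% (7.80 to 24.2%) and 12.5% (5.55 to 23.2%).

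*Cacna1b*, the N-type pore, had 6 counts (2.20 to 13.1) in 3 of 82 uninjected cells (3.66%, 0.761 to 10.3%) and 21 (13.0 to 32.1) in 15 of 64 treated cells (23.4%, 13.8 to 35.7%). The rate was 0.0539 (0.0198 to 0.117) and 1.007 (0.623 to 1.54) per 10000 counts, 18.7-fold higher (7.29 to 56.6) in treated cells. Of the 15 cells with a count, 14 had a single count and 1 had 7, and 7 of the 15 had a cone marker count. The cells lay on both sides of the GSK-J4 plate, 10 of 33 in columns 1 to 6 and 5 of 31 in columns 7 to 12. *Cacna1g*, a T-type pore, had 2 counts (0.242 to 7.22) in 2 uninjected cells and 7 (2.81 to 14.4) in 5 treated cells, a ratio of rates of 18.7 (3.56 to 184). It was the gene of the 10 found in under 10% of the cells of both libraries. *Cacna2d1*, an alpha2delta subunit of wide expression, had 19 counts (11.4 to 29.7) in 14 of 82 cells and 9 (4.12 to 17.1) in 4 of 64, 6 of these 9 in the cell that also held 137 *Cacna1h* counts. The ratio of its rates was 2.53 (1.008 to 5.87), and its treated rate was 0.146 per 10000 counts without that cell, below the uninjected rate of 0.171.

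**Figure D3:**
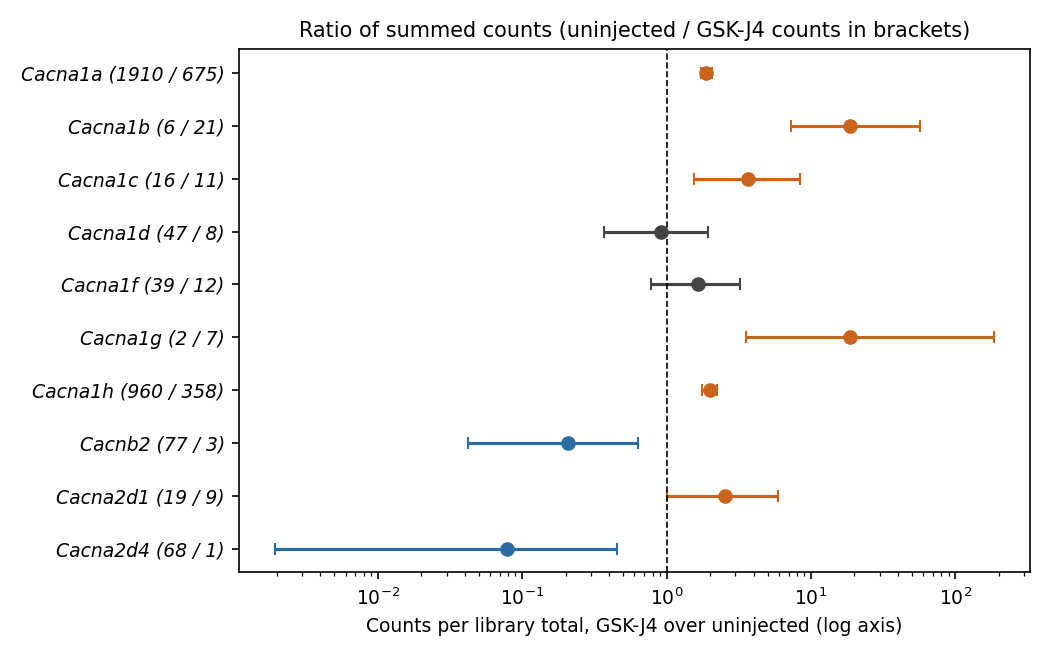
Ratio of counts per library total, treated over uninjected (log axis), for each gene with its 95% interval for counting error. Orange marks the 6 genes whose interval lies above 1 and blue the 2 below 1 (*Cacnb2* and *Cacna2d4*). Grey marks the 2 that include 1 (*Cacna1d* and *Cacna1f*). The share of all genes on either side of 1 by this measure was not computed, so these numbers describe no trait of the set. Among the orange genes *Cacna2d1* rests on 1 treated cell, without which its treated rate was below the uninjected rate.

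To compare shares of cells at 1 depth, each cell was thinned to 867 counts, which left out 1 uninjected and 14 treated cells. *Cacna1a* was then found in 63 of 81 uninjected cells (77.8%, 67.2 to 86.3%) and 47 of 50 treated cells (94.0%, 83.5 to 98.7%), and *Cacna1h* in 36 of 81 (44.4%, 33.4 to 55.9%) and 28 of 50 (56.0%, 41.3 to 70.0%). Averaged over all possible draws these shares were 72.7% and 92.4% for *Cacna1a* and 40.0% and 63.8% for *Cacna1h*. For *Cacna1b* the averages were 0.313% and 6.55%, with 0 of 81 and 2 of 50 cells in the draw.

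At this depth the intervals of the libraries overlapped for each cone synapse subunit. *Cacna1f* was found in 2 of 81 uninjected cells (2.47%, 0.30 to 8.64%) and 3 of 50 treated cells (6.00%, 1.25 to 16.5%), with averages over draws of 3.38% and 3.60%. *Cacna2d4* and *Cacnb2* were each found in 3 of 81 (3.70%, 0.770 to 10.4%) and 0 of 50 cells (0 to 7.11%), with averages of 3.75% and 0.428% for *Cacna2d4* and 3.70% and 1.43% for *Cacnb2*. *Cacna1c*, *Cacna1d*, *Cacna1g* and *Cacna2d1* were found in at most 2 cells of either library. The wide gap in the share of cells with *Cacna1f* at full depth, 30.5% against 4.69%, was not present at equal depth, but this rested on 2 treated cells. Without the 2 treated cells with the most *Cacna1f* counts the treated average was 0.422% over 48 cells. Over all 10 genes a cell held counts of a median of 3 (0 to 9) in uninjected and 2 (1 to 6) in treated cells at full depth, and of 1 and 2 after thinning.

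**Figure D4:**
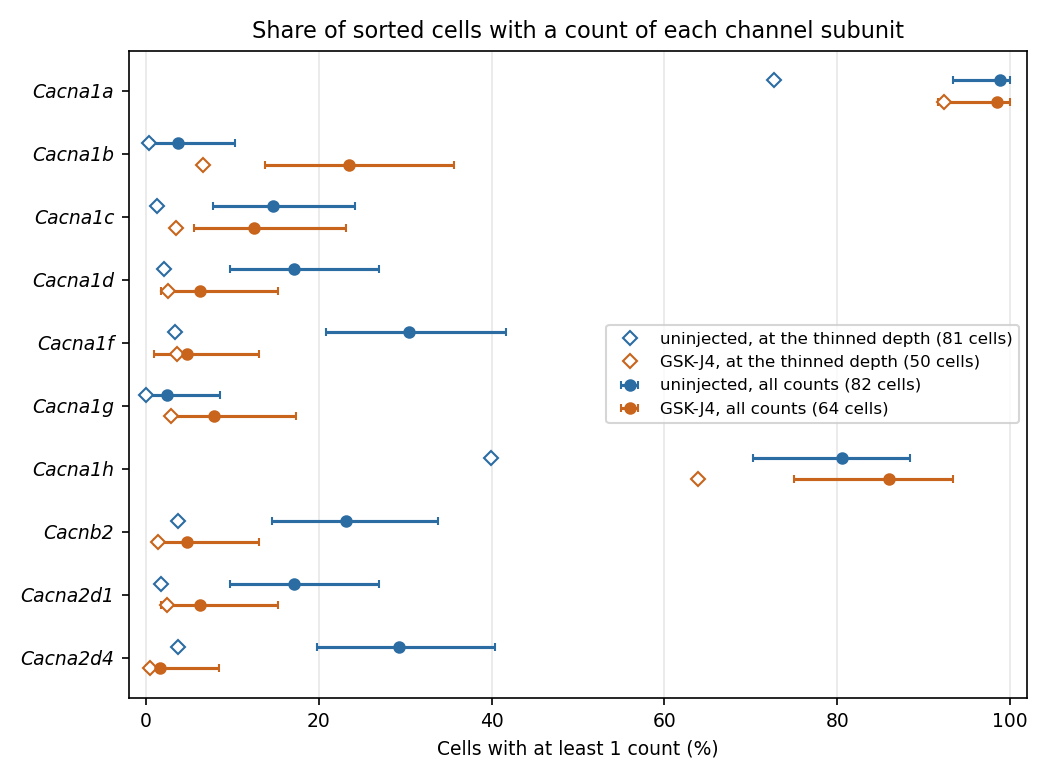
Percent of cells with at least 1 count of each gene. Filled circles with 95% Clopper-Pearson intervals use all counts (82 uninjected and 64 treated cells), and open diamonds are the shares expected with each cell at 867 counts, averaged over draws (81 and 50 cells). *Cacna1a* and *Cacna1h* stand far to the right of the other 8 genes in both libraries, and for *Cacna1f* the gap at full depth closes at equal depth, where 2 treated cells carry most of the treated share.

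For a log-fold after the form of Seurat v.2, the package the study used, 1 was added to the mean level per 10000 counts, natural logs were taken, and uninjected was subtracted from treated. The formula is a choice made here, and 0.3 is the limit the study set. By this measure 4 of the 10 genes lay above 0.3 and 1 below -0.3, and the median of the 10 was 0.16. Of all 15947 genes 12.6% lay above 0.3 and 11.8% below -0.3, with a median of 0.033. Of the 7682 genes detected in 10% or more of either library's cells, which hold 9 of the 10, these shares were 20.4% and 24%. The genes above 0.3 were *Cacna1a* (0.85 ± 0.063, counting SE), *Cacna1b* (0.62 ± 0.18), *Cacna1h* (0.43 ± 0.081) and *Cacna1c* (0.32 ± 0.17), and the gene below was *Cacna2d4* (-0.57 ± 0.096). *Cacna1g* (0.24), *Cacna2d1* (0.086), *Cacna1f* (0.078), *Cacna1d* (0.013) and *Cacnb2* (-0.25) lay between, and since 1 is added to the level, this scale understates the change of sparse genes.

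The log-folds of the abundant pores moved with the scaling and with the cells used. With median-ratio size factors the median of all 7682 genes moved to -0.14 (-0.21 on the log2 scale), and *Cacna1a*, *Cacna1h* and *Cacna1b* had log-folds of 0.056, 0.10 and 0.49, or 0.20, 0.25 and 0.64 relative to that median. Leaving out the cell with the most counts of the gene in each library gave 0.53 for *Cacna1a* and 0.24 for *Cacna1h*. Leaving out the cells under 867 counts gave 0.24 and 0.57. Thinning gave 0.25 and 0.40. Treated cells with a cone marker count alone, most of which held few such counts, gave 0.11 and 0.10. This setting was chosen after the data were seen. There *Cacna1b*, *Cacna1c* and *Cacna1f* lay above 0.3 (0.92, 0.66 and 0.43), beside 22.0% of the 7682 genes. *Cacnb2* and *Cacna2d4* lay below -0.3, beside 28.2%. The 6 *Cacna1f* counts of these treated cells came from 1 cell. In columns 7 to 12 alone *Cacna1a* and *Cacna1h* were at 0.067 and -0.040, against 1.47 and 0.79 in columns 1 to 6. *Cacna1b* stayed between 0.37 and 2.02, and *Cacnb2* between -0.87 and -0.22, in all 12 alternatives tried.

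*Cacna2d4* depended on single cells, a treated cell that the filter removes and an uninjected cell that it keeps. It lay between -1.90 and -0.27 in 11 alternatives, but at 0.026 with all deposited cells. The value of -0.27, within the limit of 0.3, was that of columns 1 to 6, which lack the uninjected cell with 12 *Cacna2d4* counts among 2801. Columns 7 to 12, which hold that cell, gave -0.79, and counts summed over each library gave -0.43. The log-fold without that cell alone was not computed, so the call below -0.3 cannot be taken to hold without it. Leaving out the cell with the most counts removed a different uninjected cell, with 17 counts, and gave -0.57. A treated cell left out for 8.01% mitochondrial counts had 3 *Cacna2d4* counts among 562, or 53.4 per 10000, and no cone marker count.

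**Figure D5:**
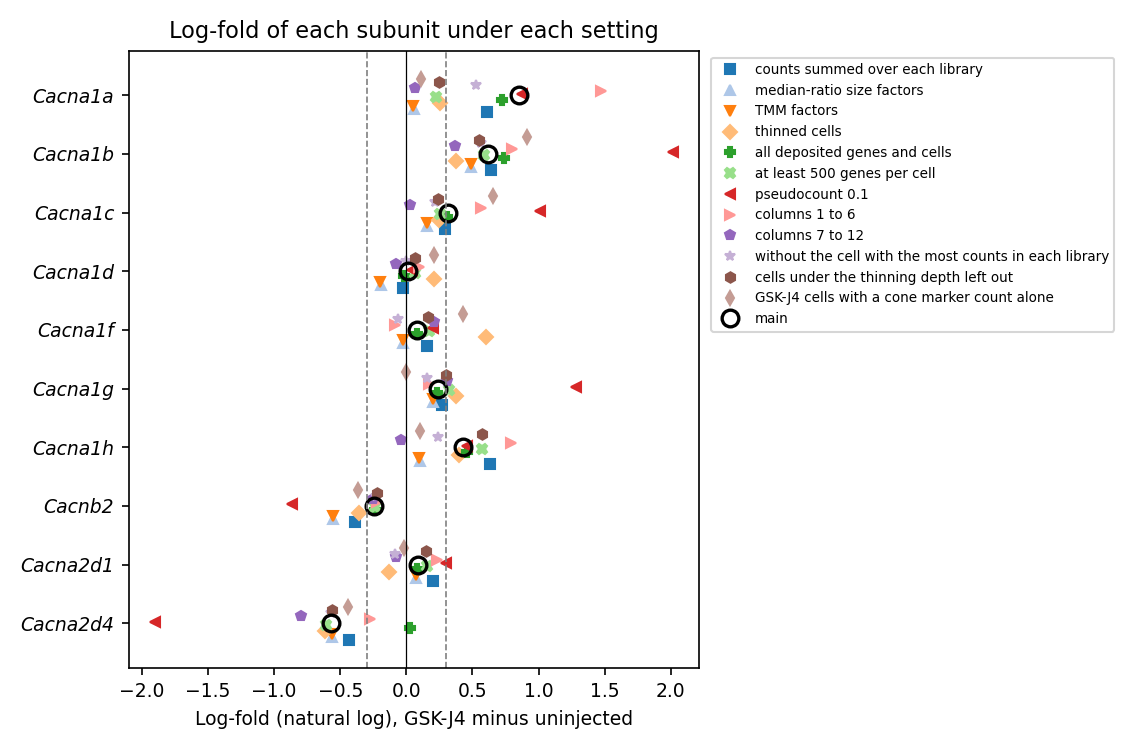
Log-fold (natural log) of each gene, treated minus uninjected, as reported (open circle) and under 12 alternative settings (coloured marks), with dashed lines at 0.3 and -0.3. *Cacna1b* stays above 0.3 and *Cacnb2* below 0 throughout, *Cacna1a* runs from 0.050 to 1.47, and of the 5 genes beyond 0.3 in size as reported *Cacna1h* and *Cacna2d4* change sign, under 1 setting each.

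Most of the other calcium channel genes were sparse as well. Of 16 further genes listed by their names as channel subunits 12 could be compared, and 3 of them lay above 0.3 log-fold and 0 below -0.3, beside 12.6% and 11.8% of all genes. *Cacna2d2*, an alpha2delta subunit, had 179 counts (154 to 207) in 34 uninjected and 51 (38.0 to 67.1) in 29 treated cells, with a log-fold of 0.65. *Cacnb1*, a beta subunit, had 20 counts (12.2 to 30.9) and 13 (6.92 to 22.2), and its log-fold was 0.59. *Cacna1e*, the R-type pore, had 237 (208 to 269) counts in 35 cells, 101 of them in a single cell, and 36 (25.2 to 49.8) in 15, with a log-fold of 0.039. *Cacnb4*, another beta subunit, had 20 and 3 counts and a log-fold of -0.13. *Cacng3*, with 2 and 4 counts, was the third above 0.3, and is named here after its value was seen.

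Among 19 genes whose products meet the channel at the active zone or bind calcium beside it, 18 could be compared, of which 4 lay above 0.3 and 5 below -0.3, beside the same 12.6% and 11.8%. The calcium sensor genes *Calm2* and *Calm3* were low in treated cells. Counts of *Calm3* were 105 (85.9 to 127) among uninjected and 1 (0.0253 to 5.57) among treated cells, and *Calm2* had 435 (395 to 478) and 0. *Stx3*, the syntaxin of ribbon synapses, had 642 counts (593 to 694) and 23 (14.6 to 34.5), a log-fold of -0.93, and the active zone scaffold *Erc2* 78 (61.7 to 97.3) and 4 (1.09 to 10.2) (-0.31).

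*Cabp1*, a calcium-binding channel regulator, was higher, with 66 (51.0 to 84.0) counts in 9 of 82 uninjected and 150 (127 to 176) in 54 of 64 treated cells, 95 of the latter in 1 cell (log-fold 1.72). *Rims1*, an active zone organiser, had 13 (6.92 to 22.2) counts in 6 and 33 (22.7 to 46.3) in 29 cells (1.006), and the large scaffold *Bsn* had 49 (36.3 to 64.8) and 30 (20.2 to 42.8) counts (0.57). *Rims2*, the last above 0.3, had 14 and 9 counts and was detected in under 10% of either library's cells. *Cabp4*, the calcium-binding partner of the photoreceptor pore, had 289 counts (257 to 324) and 23 (14.6 to 34.5), a ratio of rates of 0.425 (0.265 to 0.650). Its log-fold was 0.046, and -0.77 without 1 treated cell that held 10 *Cabp4* counts among 891. Of its uninjected counts 263 came from columns 1 to 6 and 26 from columns 7 to 12. *Pclo*, the other large scaffold, was split likewise, with 109 and 15 of its 124 uninjected counts, and had 16 in treated cells (0.19). *Unc13b* (0.11), *Ctbp2* (-0.12) and *Cabp2* (-0.16) lay within 0.3, with 30, 26 and 34 counts in uninjected and 9, 2 and 1 in treated cells.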

How the data were processed

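Per the paper's methods, the authors aligned reads in the CLC Genomics Workbench, collapsed PCR duplicates that shared their 8-nt UMI and coordinates, counted reads per gene with featureCounts and summed 3' and 5' counts. The authors deposited these counts, as whole numbers without normalization, for 17774 genes and 151 cells (85 uninjected and 66 GSK-J4-treated), which were used here. The paper names the genome GRCh38, a human build number, so coordinates here are those of GENCODE M21 and RefSeq on GRCm38. The word adult stands in the names of the treated cells, whereas the labels give postnatal day 24 for both libraries. The filter of the methods removed genes detected in fewer than 3 cells, then cells under 200 genes or over 5% mitochondrial counts. The authors applied ComBat before testing, whereas no batch correction was applied here, and no doublet caller was run. The libraries used 54 well positions in common on separate plates.

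Intervals for summed counts are exact Poisson, those for shares Clopper-Pearson, and those for ratios of rates come from the exact binomial of the counts of both libraries, all at 95% and for counting error only. The counting SE of a log-fold is by the delta method. Thinning was to 867 counts, the 10th percentile, without replacement. The calculation was tested on simulated Poisson counts that differed between cells of a library only by depth and counting error. Real cells varied more, so this check does not bear on the width of the intervals here. The named genes were the 10 members, genes of the 2 further lists detected in 10% or more of either library's cells, and the 3 genes most like each member found in at least 50% of uninjected cells, among genes found in at least 25% of them. The members, lists and alternatives were chosen with earlier results of these data known. With 1 library per condition there was no test. Alternatives were other scalings (median-ratio, and TMM from edgeR 4.0.16 in R 4.3.3), filters, a pseudocount of 0.1, plate sides and single cells left out. Python 3.11.15, numpy 2.4.6, pandas 2.3.3 and scipy 1.17.1 were used. The values of 1 gene of the further lists are not reported here.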

Additional observations from a re-analysis of the deposited data

Results flagged for a closer look

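Of the 5 cells left out by the mitochondrial limit, 1 of the treated cells had 3 counts of *Cacna2d4* among 562 counts, a level of 53.4 per 10000 that lies above the highest value of any uninjected cell kept (42.8). It had no count of a cone marker. Data outside the comparison thus held a *Cacna2d4* signal that the 64 kept treated cells, with 1 count in all, did not. A left-out uninjected cell had 315 *Cacna1a* counts among 12826.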

How the results depend on the processing

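The sum of the 10 genes had a log-fold of 0.72, which became 0.61 with counts summed over each library, 0.052 with median-ratio size factors, 0.045 with TMM factors, 0.32 after thinning, 0.36 with at least 500 genes per cell, 1.28 in columns 1 to 6 and 0.022 in columns 7 to 12. Chosen after the data were seen, leaving out cells under 867 counts gave 0.37, treated cells with a cone marker count alone gave 0.17, and the sum without *Cacna1a* and *Cacna1h* gave 0.19. The cause of these moves was not tested, and thinning leaves the expected mean of a cell as it was, so its value differs by the cells it leaves out and by the draw. As reported 4 genes lay above 0.3. Under median-ratio or TMM factors 1 did, while the share of detected genes above 0.3 went from 20.4% to 8.14% and 8.02%. In columns 7 to 12 there were 2, of which *Cacna1b* was among the 4 and *Cacna1g* was not. There were also 2 without the cell with the most counts of the gene and 2 without cells under 867 counts, all among the 4. The share of detected genes above 0.3, close to 2 of 10, was 22.1% in columns 7 to 12 and 22.1% without cells under 867 counts. It was not computed without the cell with the most counts. Of 1 gene below -0.3, 0 were left with all deposited cells and in columns 1 to 6, and there were 2 with summed counts, median-ratio factors, TMM factors, thinning, a pseudocount of 0.1, and marker-positive treated cells alone. The share of detected genes below -0.3 was 24% as reported, 34.0% and 34.1% with median-ratio and TMM factors and 40.9% with the pseudocount of 0.1. It was 25.5% in columns 1 to 6, 22.9% with summed counts, 26.3% after thinning and 28.2% with marker-positive treated cells alone. With all deposited cells it was not computed. *Cacna1h* changed sign to -0.040 in columns 7 to 12 and *Cacna2d4* to 0.026 with all deposited cells. The *Cacna1a* to *Cacna1h* ratio, the thinned *Cacna1f* share and the *Cabp4* log-fold without single cells were also computed after the data were seen. No paired analysis was possible because each condition is 1 library. Depth limits the 8 sparse genes, which had at most 77 counts in a library.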
